A study of Mus musculus with 12 samples.

Results

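Peptide presentation on MHC class I was followed here through 10 genes in cultured mouse microglia. They were 5 heavy chains (H2-K1, H2-D1, H2-T23, H2-M3 and H2-Q7), the light chain B2m, the peptide transporter subunits Tap1 and Tap2, the loading factor Tapbp and the transactivator Nlrc5. The genes were chosen by name, and every probe whose transcript accession RefSeq assigns to one of them was taken, which gave 12 probes for the 10 genes out of 39429 probes on the array. All 12 probes were well above background on all 12 arrays, and all 10 genes were among the 19802 tested.

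Microglia shaken off mixed glial cultures of newborn C57BL/6 mouse brain were exposed for 16 h to culture supernatant of Th1 cells, to culture supernatant of Th17 cells, or to medium; the labels call this last group untreated and the titles give its medium as IMDM. Each group had 4 samples, 1 from each of 4 independent experiments numbered 12, 13, 14 and 16, and each sample was hybridised to 1 single-colour Agilent array. Arrays are named below by group and experiment, as in Th17 13. The supernatants were whole mixtures secreted by T cell cultures, so an effect belongs to the mixture and to no single factor in it.

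MHC class I molecules display peptides from proteins made inside the cell to CD8+ T cells. Peptides cut by the proteasome are carried into the endoplasmic reticulum by the Tap1-Tap2 transporter, tapasin (Tapbp) bridges the transporter to an empty heavy chain bound to beta-2 microglobulin (B2m), and the filled complex travels to the cell surface. Nlrc5 is a nuclear protein of the NOD-like receptor family that drives transcription of class I genes, and interferon-gamma, the signature cytokine of Th1 cells, is a well known inducer of the whole pathway.

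The promoters of several of these genes carry a shared module, and they are shown because the genes that rose include some with and some without it. RefSeq promoter windows of GRCm38.p6, each of 250 bases before to 50 bases after a transcript start, were found for 8 of the 10 genes. Windows were searched on both strands for GAANNGAAA (a form of the core of the interferon-stimulated response element), TTCNNNGAA (the gamma-activated site) and GGGATTCCC (the kappa B element of class I enhancer A). TGACG (the core of the X2 box) and ATTGG (the Y box, read as CCAAT on the other strand) were searched too. Forms of the interferon element with a wider spacing were not searched. Below are the 250 bases before the start of 5 genes, read 5′ to 3′ along the gene, with every match in capitals.
H2-K1, chr17:34000334-34000583, minus strand: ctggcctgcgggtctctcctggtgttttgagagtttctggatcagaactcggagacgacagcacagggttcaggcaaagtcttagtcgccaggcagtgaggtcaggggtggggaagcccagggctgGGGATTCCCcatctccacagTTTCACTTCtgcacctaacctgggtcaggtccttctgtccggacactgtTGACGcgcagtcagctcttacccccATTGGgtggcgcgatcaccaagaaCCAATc
H2-D1, chr17:35262844-35263093, plus strand: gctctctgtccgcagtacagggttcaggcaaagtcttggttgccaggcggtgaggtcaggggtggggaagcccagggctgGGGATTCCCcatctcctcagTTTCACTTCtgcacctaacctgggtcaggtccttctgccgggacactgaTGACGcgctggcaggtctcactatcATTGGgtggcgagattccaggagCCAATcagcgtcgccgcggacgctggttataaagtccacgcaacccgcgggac
H2-M3, chr17:37269984-37270233, plus strand: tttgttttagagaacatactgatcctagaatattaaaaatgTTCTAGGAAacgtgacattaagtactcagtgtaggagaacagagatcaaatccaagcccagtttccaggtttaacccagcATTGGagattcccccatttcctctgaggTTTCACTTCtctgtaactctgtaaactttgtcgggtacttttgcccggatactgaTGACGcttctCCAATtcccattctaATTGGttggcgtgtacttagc
B2m, chr2:122147437-122147686, plus strand: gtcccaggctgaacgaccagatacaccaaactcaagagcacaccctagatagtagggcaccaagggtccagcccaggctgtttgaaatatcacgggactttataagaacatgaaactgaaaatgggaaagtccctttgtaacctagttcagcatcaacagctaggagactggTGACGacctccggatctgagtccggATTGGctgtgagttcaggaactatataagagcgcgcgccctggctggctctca
Tap1, chr17:34187306-34187555, plus strand: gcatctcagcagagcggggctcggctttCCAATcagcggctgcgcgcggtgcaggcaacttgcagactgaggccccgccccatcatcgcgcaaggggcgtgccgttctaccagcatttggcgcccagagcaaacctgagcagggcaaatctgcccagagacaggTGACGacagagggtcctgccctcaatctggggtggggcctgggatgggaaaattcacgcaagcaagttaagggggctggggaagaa

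The classical heavy chains H2-K1 and H2-D1 had the same matches in the same order: the kappa B element, the interferon element 20 bases further on, the X2 core 49 bases after that and the Y box 25 bases after the X2 core, counted between first bases. H2-Q7 had this order too, with distances of 19, 49 and 24 bases. In H2-M3 the kappa B element was not matched, the interferon element lay 55 bases before the X2 core, a Y box followed 25 bases after that core, and a gamma-activated site lay further upstream. B2m had the X2 core and the Y box 25 bases apart, without a match to the searched interferon or kappa B letters in this window. Its window does hold gaaactgaaa, a wider-spaced repeat that the searched letters cannot match. The lack of a match is therefore not read as the lack of an interferon element. Of the letters searched, H2-T23 and Tapbp matched only the Y box, and Tap1 matched the X2 core and a distant Y box. The H2-T23 window holds tttctctttc, a wider-spaced repeat on the other strand that was likewise not counted. No matches overlapped in these windows.

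The searched form of the interferon element was matched in 4 of the 8 genes with a window and in 7.52% of all 32851 windows of this length. These shares do not cover wider-spaced forms, such as the repeats in the B2m and H2-T23 windows. The gamma-activated site was matched in 1 of 8 and 8.3% of windows, and the kappa B element in 3 of 8 and 0.353% of windows. TGACG was matched in 6 of 8 and 20.8%, and ATTGG in 8 of 8 and 37.4%. An X2 core followed by a Y box 24 to 25 bases later on the same strand, a rule set after the matches were seen, stood in 5 of the 8 genes. The pair stood in 43 of the 32851 windows (0.131%), which belonged to 38 genes, the same 5 among them. The kappa B letters are those of class I enhancer A, so their match in class I heavy chains was partly set by that choice. These are matches of letters, and binding was not measured.

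**Figure D1:**
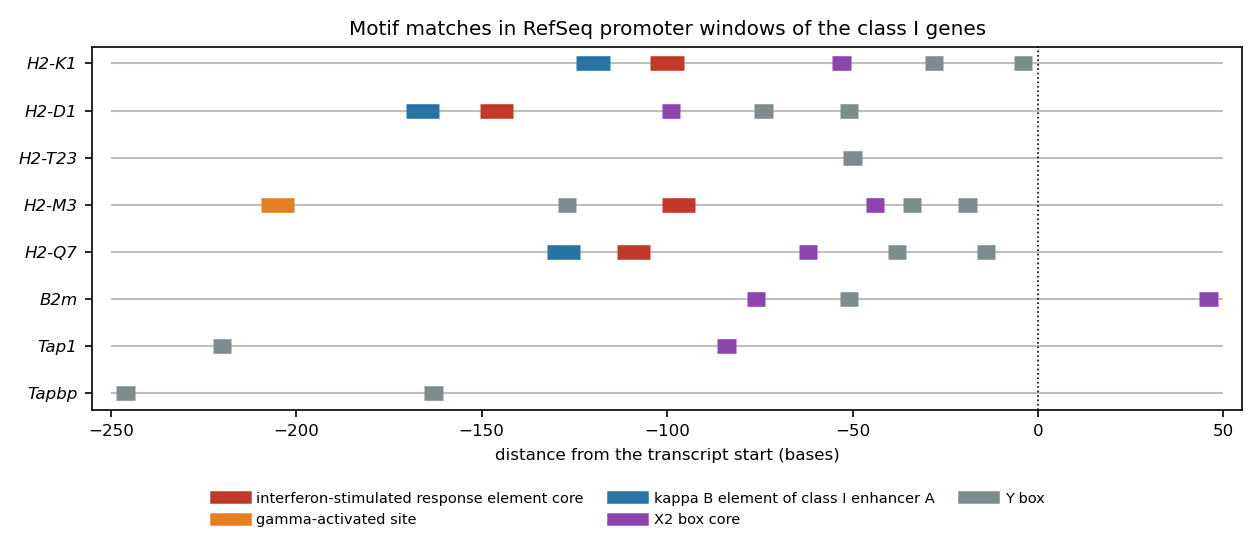
Matches to the 5 searched motifs in the promoter windows of the 8 class I genes with a window, by distance from the transcript start in bases (x axis). Coloured blocks are matches on either strand; H2-K1, H2-D1 and H2-Q7 share the order kappa B element, interferon element, X2 core and Y box, and B2m has the X2 core and Y box at the distance found in H2-K1.

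Of these 10 genes, 8 rose in Th1 microglia against untreated microglia, at an adjusted p under 0.01 and a change over 2-fold, and none fell. Over all 19802 genes, 7.49% were called higher and 7.88% lower. The median log2 fold change of the 10 genes was 1.73, against -0.06 over all genes. Levels below are normalized intensity units on a linear scale, given for experiments 12, 13, 14 and 16 in that order; differences are on the log2 scale, from limma's moderated test over all 12 arrays with Benjamini-Hochberg adjustment over all genes. All 4 Th1 arrays lay above all 8 other arrays for 10 of 10 genes, against 15.6% of all genes. In these bulk samples, fewer cells of a type and less RNA per cell cannot be told apart.

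Of the 10 genes, a peptide transporter subunit showed the widest difference. Tap1, which pairs with Tap2 to pump peptides into the endoplasmic reticulum, measured 17032, 14597, 13664 and 14685 units in Th1 microglia, against 712, 2503, 1222 and 741 in Th17 microglia and 1171, 704, 575 and 731 in untreated microglia. The 4 Th1 values lay within a narrow band far above the rest, and the Th17 and untreated values overlapped. Tap1 rose by 4.28 ± 0.36 (SE) on the log2 scale in Th1 microglia, or 19.5-fold (adjusted p = 3.4e-06).

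Tap2, the second transporter subunit, measured 87005, 54577, 64661 and 59345 units in Th1 microglia, against 10896, 14515, 14062 and 11388 in Th17 microglia and 13268, 9881, 10867 and 11681 in untreated microglia. Its lowest Th1 array stood well clear of its highest array in either other group. The rise was 2.52 ± 0.16 (SE), or 5.75-fold, with the lowest adjusted p of the 10 genes (4.83e-07). Tapbp, which holds the empty heavy chain at the transporter while peptides are sampled, measured 122297, 99128, 104683 and 85652 units in Th1 microglia, against 19480, 43331, 24874 and 18990 in Th17 microglia and 25013, 16713, 21234 and 16374 in untreated microglia. Th17 13 was the highest array outside the Th1 group, and the Th1 arrays did not overlap with it. Tapbp rose by 2.39 ± 0.25 (SE), or 5.23-fold (adjusted p = 1.81e-05).

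Nlrc5, the transactivator of the family, measured 20775, 16940, 19142 and 17459 units in Th1 microglia, against 1476, 4747, 2860 and 1457 in Th17 microglia and 1652, 1381, 1716 and 1220 in untreated microglia. Th1 arrays were again the 4 highest, and Th17 13 and Th17 14 lay above all untreated arrays. Nlrc5 rose by 3.65 ± 0.32 (SE) in Th1 microglia, or 12.5-fold (adjusted p = 5.25e-06). A second and much dimmer Nlrc5 probe, at 142 to 181 units in Th1 microglia, 37.0 to 66.8 in Th17 microglia and 26.3 to 62.5 in untreated microglia, rose by 1.89 ± 0.26 (SE) with an adjusted p of 0.000135 in the same test over all 24287 probes kept. Both probes passed the test, and the dim probe gave the smaller difference.

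Among the classical heavy chains, H2-K1 encodes the K molecule and measured 330879, 323385, 325123 and 265331 units in Th1 microglia, against 125856, 197250, 140267 and 103391 in Th17 microglia and 149997, 99221, 125417 and 95612 in untreated microglia. The Th1 values did not overlap with the others, and Th1 16 was the lowest of the 4 Th1 arrays. H2-K1 rose by 1.42 ± 0.20 (SE), or 2.68-fold (adjusted p = 0.000165). A second H2-K1 probe rose by 1.72 ± 0.20 (SE), with an adjusted p of 3.38e-05 over all probes kept.

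H2-D1 encodes the D molecule and measured 293185, 240577, 255581 and 195232 units in Th1 microglia, against 134915, 149130, 140754 and 106351 in Th17 microglia and 154185, 91079, 138361 and 122590 in untreated microglia. The Th1 arrays lay above all others here too. H2-D1 differed by 0.97 ± 0.18 (SE), or 1.96-fold, with an adjusted p of 0.00117, so it passed the threshold on p and missed the threshold on fold change. With scaling to the 75th percentile in place of quantile normalization, the difference was 1.04 ± 0.17 (SE), and H2-D1 was called (adjusted p = 0.000521).

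The non-classical heavy chains also had their 4 highest arrays in the Th1 group, with fold changes of different size. H2-T23 encodes Qa-1, which presents a small set of peptides including those from class I leader sequences, and measured 376867, 322285, 330855 and 301594 units in Th1 microglia, against 77706, 135881, 101166 and 76106 in Th17 microglia and 99848, 67474, 94784 and 67340 in untreated microglia. It rose by 2.03 ± 0.20 (SE), or 4.1-fold (adjusted p = 1.14e-05), the highest fold change of the 5 heavy chains. H2-M3, which presents N-formylated peptides, measured 13528, 12748, 15292 and 12923 units in Th1 microglia, against 5142, 8197, 6333 and 4805 in Th17 microglia and 7068, 5686, 5264 and 4757 in untreated microglia. On the log2 scale its Th1 arrays spanned less than the arrays of either other group, and it rose by 1.27 ± 0.17 (SE), or 2.41-fold (adjusted p = 0.000135).

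H2-Q7 encodes Qa-2, a molecule anchored in the membrane by a lipid, and measured 186101, 174500, 189326 and 157497 units in Th1 microglia, against 79221, 95128, 93855 and 76292 in Th17 microglia and 91915, 63916, 83460 and 72316 in untreated microglia. No Th1 value overlapped with another group. H2-Q7 rose by 1.19 ± 0.13 (SE), or 2.29-fold (adjusted p = 2.72e-05). Class I heavy chains are close in sequence; the probe sequences were not used here, and the part that RNA of one chain may play in the signal of another was not tested.

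B2m, the invariant light chain, measured 285388, 291044, 293146 and 285912 units in Th1 microglia, against 195131, 255010, 204646 and 154422 in Th17 microglia and 199213, 186101, 200028 and 142426 in untreated microglia. The 4 Th1 values lay within 285388 to 293146 units, above every other array, and the other groups overlapped. The difference was 0.68 ± 0.15 (SE), or 1.6-fold, with an adjusted p of 0.00389; like H2-D1, B2m passed on p and missed on fold change. The SD of the log2 signal over the Th1 arrays was 0.02 after quantile normalization and 0.06 with scaling alone, against 0.23 and 0.21 in untreated microglia. No spot on any array was marked as saturated.

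**Figure D2:**
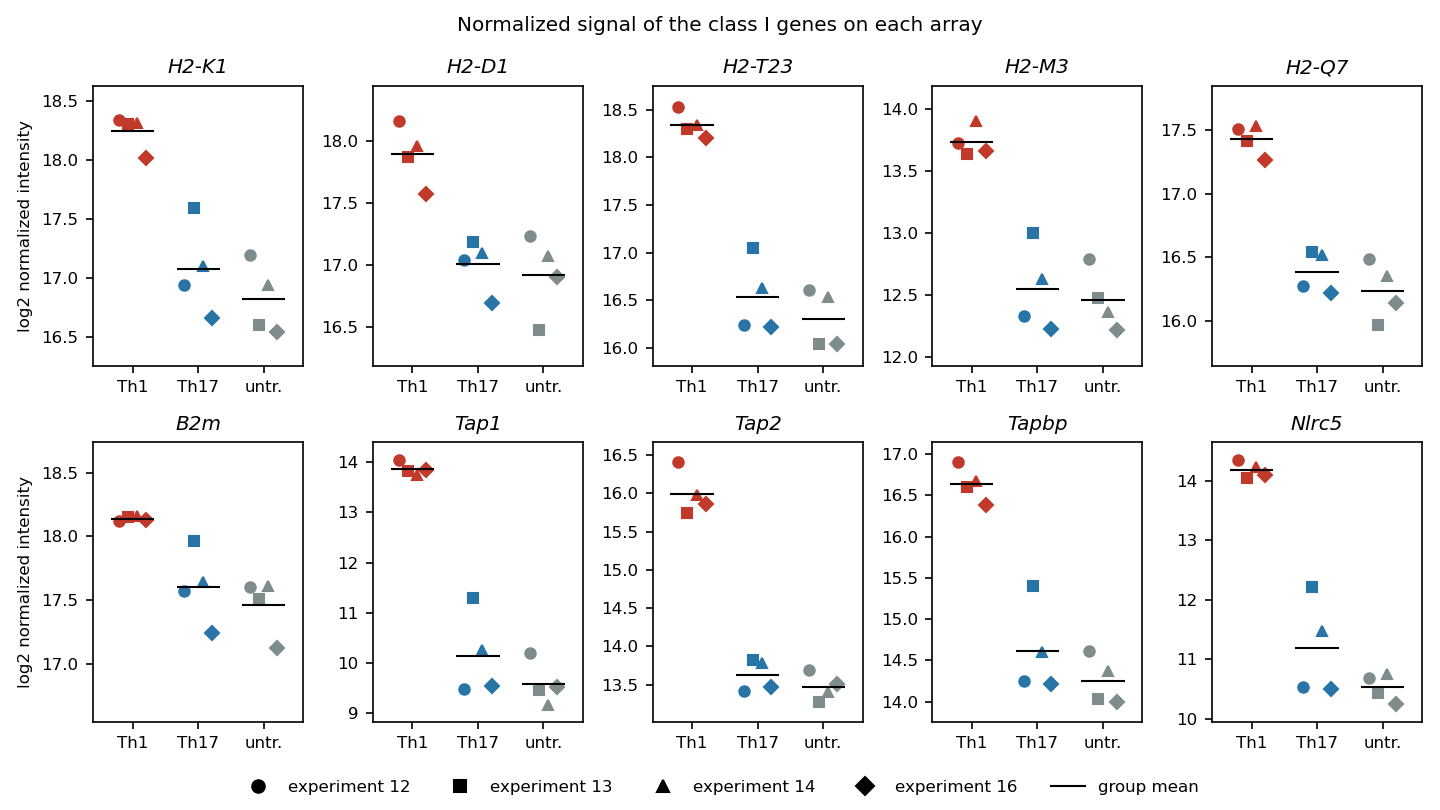
Log2 normalized intensity (y axis, own range for each gene) of the 10 class I genes on each of the 12 arrays, by group (x axis; untr., untreated). Each point is 1 array, its shape gives the experiment, and the line is the group mean of 4 arrays; the 4 Th1 points lie above all 8 others for every gene, and the square of experiment 13 is the highest Th17 point for every gene.

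The order of the log2 fold changes in Th1 microglia ran from Tap1 and Nlrc5 through Tap2, Tapbp, H2-T23, H2-K1, H2-M3, H2-Q7 and H2-D1 to B2m. The 95% intervals of neighbours in this order overlapped, except those of Nlrc5 and Tap2: 3.51 to 5.06 for Tap1 and 2.94 to 4.35 for Nlrc5, 2.17 to 2.88 for Tap2 and 1.84 to 2.93 for Tapbp, and 0.57 to 1.37 for H2-D1 and 0.34 to 1.02 for B2m. The place of Nlrc5 rests on its bright probe: with the mean over both probes its difference was 2.77 ± 0.27 (SE), and the dim probe alone gave 1.89 ± 0.26 (SE). Differences between genes were not tested.

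Within each experiment the same direction was seen. The median over the 10 genes of the difference between the Th1 and the untreated array was 1.53 in experiment 12, 1.98 in experiment 13, 1.67 in experiment 14 and 1.82 in experiment 16, while the median over all genes lay between -0.07 and -0.04. All 10 genes were higher in the Th1 array in all 4 experiments. The smallest of these 40 differences was 0.52, for B2m in experiment 12, and the largest was 4.57, for Tap1 in experiment 14. Within the 3 slides, each of which held arrays of all 3 groups, the median over the 10 genes was 1.82, 1.60 and 1.82 on slides 1, 2 and 3.

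Th17 supernatant gave no call among the 10 genes against untreated microglia. No gene of the 19802 was called in this comparison, 0% in either direction, and all adjusted p from limma were 1 for the 10 genes. At an unadjusted p under 0.05 there were 325 genes (1.64%), with none of the 10 among them; the lowest unadjusted p of the 10 was 0.0663, for Nlrc5. The log2 fold changes lay between 0.08 and 0.65, with a median of 0.19 against -0.0018 over all genes. All 4 Th17 arrays lay above all 4 untreated arrays for 0 of the 10 genes, against 0.53% of all genes.

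The intervals, which rest on a spread shared by all 3 groups, set how large a change could have been missed. For Nlrc5 the difference was 0.65 ± 0.32 (SE) with a 95% interval of -0.05 to 1.36, and for Tap1 it was 0.55 ± 0.36 (SE) with an interval of -0.22 to 1.33, so a change over 2-fold lay inside both. Tapbp differed by 0.36 ± 0.25 (SE), with an interval of -0.18 to 0.91. Among the 5 heavy chains, B2m and Tap2 the highest upper end was 0.69, for H2-K1, which is below 2-fold. Fitted on only the 8 Th17 and untreated arrays, the SE was wider for Nlrc5 (0.38), Tap1 (0.42), Tapbp (0.28) and H2-K1 (0.23). It was narrower for Tap2 (0.14). Intervals from that fit are not given.

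**Figure D3:**
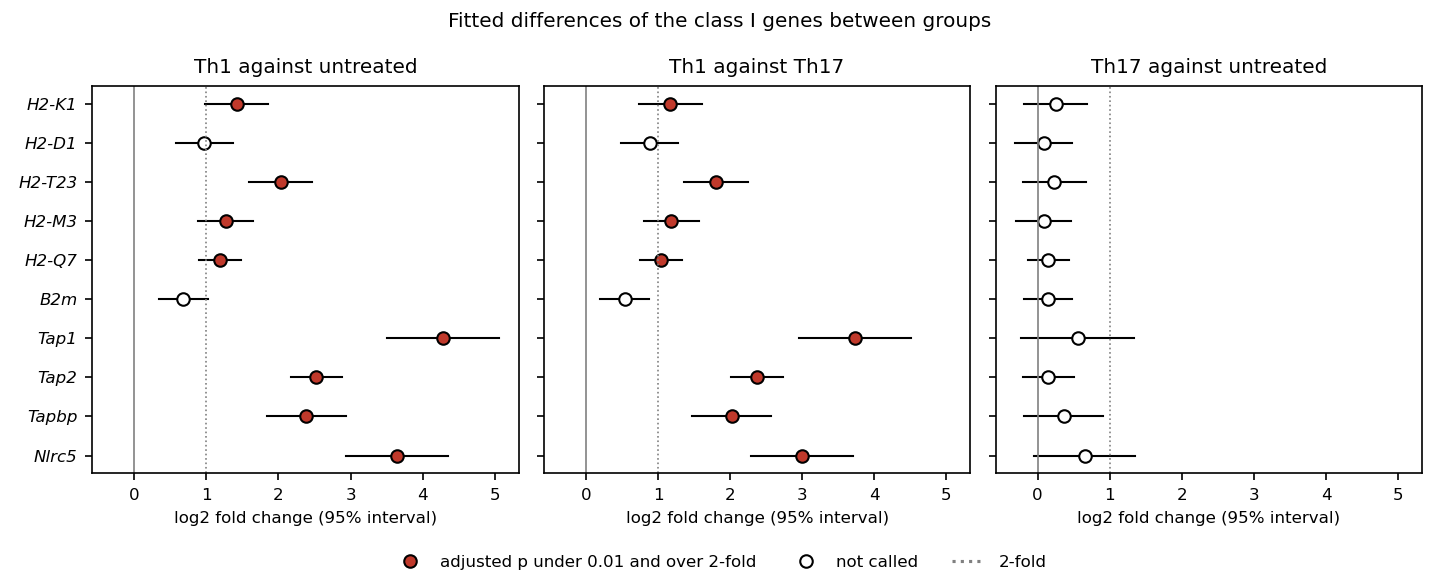
Log2 fold change (x axis, points) with its 95% interval (lines) of the 10 class I genes in each comparison, from limma over 12 arrays with 4 per group. Filled points were called at an adjusted p under 0.01 and over 2-fold (8, 8 and 0 genes from left to right), and the dotted line marks 2-fold.

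One Th17 array stood above the rest of its group. Th17 13 was the highest of the 4 Th17 arrays for 10 of 10 genes, and for 27.7% of all genes. Nlrc5 measured 4747 units there, against 1457 to 2860 on the other Th17 arrays, Tap1 measured 2503 against 712 to 1222, and Tapbp measured 43331 against 18990 to 24874. For each of these 3 genes Th17 13 lay between the remaining Th17 arrays and the Th1 arrays. This was not particular to the 10 genes: the mean log2 signal of the peptide list was 13.86 on Th17 13 against 13.40 to 13.56 on the other Th17 arrays, that of the regulators 10.87 against 10.42 to 10.69 and that of the class II genes 8.45 against 7.09 to 7.71. For the other class I chains it was 10.97 against 10.46 to 11.03, with Th17 14 the highest. Untreated 14 was also the highest untreated array for this list, at 10.95 against 10.36 to 10.66, with untreated 13 at 10.45.

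Inside experiments, the median difference of the 10 genes between the Th17 and the untreated array was -0.27 in experiment 12, 0.85 in experiment 13, 0.20 in experiment 14 and 0.10 in experiment 16. In experiment 12 all 10 genes were lower on the Th17 array, and in experiment 13 all 10 were higher, by 0.45 for B2m up to 1.83 for Tap1. Nlrc5 differed by 0.74 and Tap1 by 1.09 in experiment 14. By slide the median difference was -0.05, 0.58 and 0.33 on slides 1, 2 and 3. Untreated 13 lay on slide 1, Th17 13 and untreated 14 on slide 2, and Th17 14 on slide 3. The differences inside experiments 13 and 14 therefore cross slides, and the value of slide 2 sets Th17 13 against untreated 14. With Th17 13 left out, the differences against untreated microglia were 0.31 ± 0.23 (SE) for Nlrc5, 0.17 ± 0.25 (SE) for Tap1 and 0.10 ± 0.18 (SE) for Tapbp, and no gene was called.

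Th17 13 also stood apart in measures that do not rest on these genes alone. On the first principal component of all genes, with 70.3% of the variance, it lay at -29.7, against -59.1 to -46.9 for the other Th17 arrays, -59.3 to -48.2 for untreated and 86.0 to 111.9 for Th1 arrays, and its raw 75th percentile, 2214.5 units, was the highest of the 12 (the others lay at 1199.6 to 1628.3). The T cell genes Cd3d, Cd3g, Cd8a and Cd2 were below background on all 12 arrays, Th17 13 included, while Cd3e and Cd4 were above background on all of them. The 6 measured members of the T cell list averaged 8.44 there on the log2 scale, against 8.84 to 8.96 on the other Th17 arrays, 8.21 to 8.51 on Th1 arrays and 8.97 to 9.05 on untreated arrays. Among the 6, Cd28 measured 9.35 on Th17 13 against 10.80 to 11.75 on the other Th17 arrays. Cd3e (9.71 against 10.08 to 10.48) and Cd4 (12.19 against 12.34 to 12.72) were also lower. Cd5 was higher (6.69 against 6.26 to 6.48), and Lck and Zap70 lay within the range of the other Th17 arrays. The part of these features in the values of Th17 13 was not tested.

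**Figure D4:**
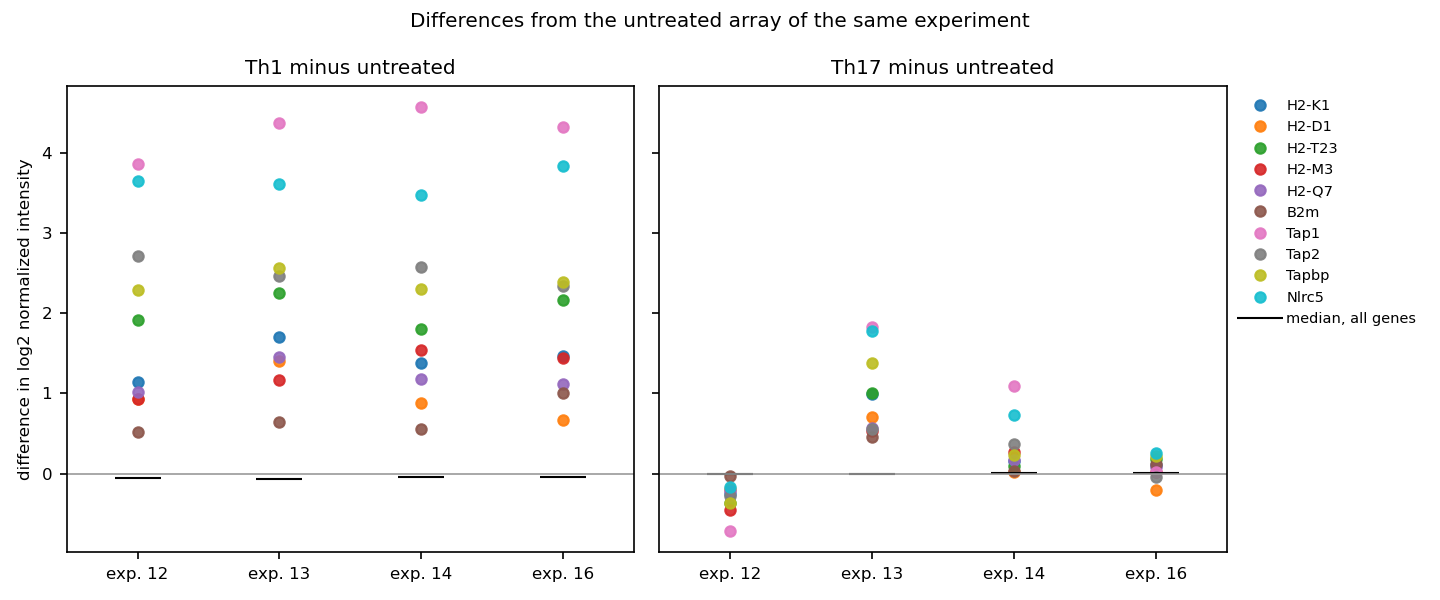
Difference in log2 normalized intensity (y axis) between the Th1 array (left) or the Th17 array (right) and the untreated array of the same experiment (x axis), for each of the 10 class I genes (points), with the median over all genes as a black bar. Th1 differences are above 0 in all 4 experiments; Th17 differences are all below 0 in experiment 12 and all above 0 in experiment 13.

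Set directly against Th17 microglia, 8 of the 10 genes were higher in Th1 microglia and none lower; 6.89% of all genes were called higher and 7.91% lower. This comparison and the previous pair share arrays, so they are not separate lines of evidence. Tap1 differed by 3.73 ± 0.36 (SE), or 13.3-fold (adjusted p = 1.09e-05), and Nlrc5 by 2.99 ± 0.32 (SE), or 7.97-fold (adjusted p = 2.59e-05). Tap2 differed by 2.37 ± 0.16 (SE) and Tapbp by 2.02 ± 0.25 (SE).

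Of the heavy chains, H2-T23 had the widest difference at 1.80 ± 0.20 (SE) and H2-Q7, at 1.04 ± 0.13 (SE), the smallest one that was called. H2-D1 differed by 0.89 ± 0.18 (SE), with an adjusted p of 0.00223, and B2m by 0.54 ± 0.15 (SE), with an adjusted p of 0.0149. Neither was called, H2-D1 for its fold change and B2m on both counts. The failure of B2m on p depended on the processing: with scaling to the 75th percentile its adjusted p from limma was 0.000789, still short of 2-fold. With the slide as a block H2-Q7 differed by 1.00 and was below 2-fold, and with scaling to the 75th percentile H2-D1 differed by 1.06 and was called. The median difference of the 10 genes was 1.84, 1.03, 1.49 and 1.71 in experiments 12, 13, 14 and 16, and 1.837, 1.084 and 1.505 on slides 1, 2 and 3.

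The 10 genes followed each other closely across arrays. Over their 45 pairs, Pearson's r of the log2 signal on the 12 arrays ran from 0.846 to 0.996 with a median of 0.972 (differences between the groups enter these values). With the group means taken out, r over the same 12 arrays ran from 0.29 to 0.97 with a median of 0.79, so arrays of 1 group that were high for one of the genes tended to be high for the others. These arrays share experiments and normalization, and the values are given as a description. Th17 13, the highest Th17 array for all 10 genes, is among them, and r without it was not computed.

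By the same measure, the genes closest to Nlrc5 among 13949 genes with a symbol were Psmb10, an immunoproteasome subunit, then Uba7, Ifi47, Phf11b and Nmi, all with r = 0.995. Tap1 was closest to Tapbpl, the tapasin-related peptide editor (r = 0.998), and Psmb10, Fcgr4 and Irf1 were also among its closest genes. H2-K1 was closest to H2-K2 (r = 0.994), then Tapbp, Psme1, H2-T23 and LOC547349. All of these values are over 12 arrays in 3 groups.

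Other class I and class I-like chains moved in both directions. Of 23 listed, 18 were on the array under these names and 15 were measured. Of the 15, 10 rose in Th1 against untreated microglia, 1 fell, and the median log2 fold change was 1.67. Over all genes, 7.49% were called higher and 7.88% lower in this comparison. Procr, the endothelial protein C receptor, rose by 5.47 ± 0.74 (SE), H2-Q8 by 5.20 ± 0.55 (SE), H2-T24 by 4.25 ± 0.52 (SE) and H2-M9 by 3.20 ± 0.31 (SE), the last from a level well above background on 1 of 4 untreated arrays. Hfe, a class I-like regulator of iron uptake that presents no peptide, fell by 1.30 on the log2 scale (adjusted p = 0.00234). Azgp1 differed by -0.18 ± 0.17 (SE) and Mr1, which presents vitamin B metabolites, by -0.36 ± 0.18 (SE); neither passed the test.

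The steps that make and trim the peptides were measured through 20 genes of a list of 21. Of the 20, 8 rose in Th1 microglia and none fell (7.49% and 7.88% of all genes), with a median of 0.48. Tapbpl rose by 3.54 ± 0.26 (SE), the immunoproteasome subunits Psmb9 by 3.21 ± 0.36 (SE) and Psmb8 by 2.67 ± 0.29 (SE), and the aminopeptidase Lap3 by 2.78 ± 0.12 (SE). Psmb10, the proteasome activator subunits Psme1 and Psme2, and Erap1, which trims peptides inside the endoplasmic reticulum, made up the rest of the 8. At the other end, the peptidase Tpp2 differed by -0.17 ± 0.16 (SE) and Pdia3, the disulphide isomerase of the loading complex, by 0.20 ± 0.21 (SE). Of the chaperones, Calr differed by 0.25 ± 0.11 (SE) and Canx by -0.36 ± 0.20 (SE) and did not pass. Hspa5, at 0.60 ± 0.08 (SE; adjusted p = 0.000146), and the peptidase Blmh, at -0.60 ± 0.13 (SE; adjusted p = 0.00269), passed on p and missed on fold change.

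Of 17 regulators of class I transcription, 5 rose in Th1 against untreated microglia and none fell (7.49% and 7.88% of all genes). The list median was 0.69. Irf1, an interferon-induced factor that binds the interferon element, rose by 4.34 ± 0.25 (SE), Stat2 by 3.23 ± 0.34 (SE) and Irf8 by 1.24 ± 0.12 (SE). Rela, the NF-kappa B subunit, differed by -0.05 ± 0.13 (SE). Of the factor that binds the Y box, Nfyb differed by -0.11 ± 0.14 (SE) and Nfyc by -0.23 ± 0.12 (SE), while Nfya differed by -0.84 ± 0.11 (SE), which passed on p (adjusted p = 0.000115) and missed on fold change. Of the X box factors, Rfxank differed by 0.69 ± 0.16 (SE; adjusted p = 0.00439), also short of 2-fold, and Rfxap by -0.65 ± 0.18 (SE; adjusted p = 0.0127). Rfx5 was not above background on any untreated array and was not called.

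The MHC class II genes, given for comparison, had 8 of 10 called higher in Th1 against untreated microglia (7.49% of all genes) and a median of 4.25. The same 4 lists had 0 genes called in Th17 against untreated microglia, where medians lay between 0.01 and 0.18. Th1 against Th17 gave 10 higher and 1 lower among the other class I chains, 8 higher in the peptide list, 6 higher among the regulators and 8 higher among the class II genes. Over all genes, 6.89% were called higher and 7.91% lower there. The lists were chosen with earlier results of these data known, and the counts describe them only.

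**Figure D5:**
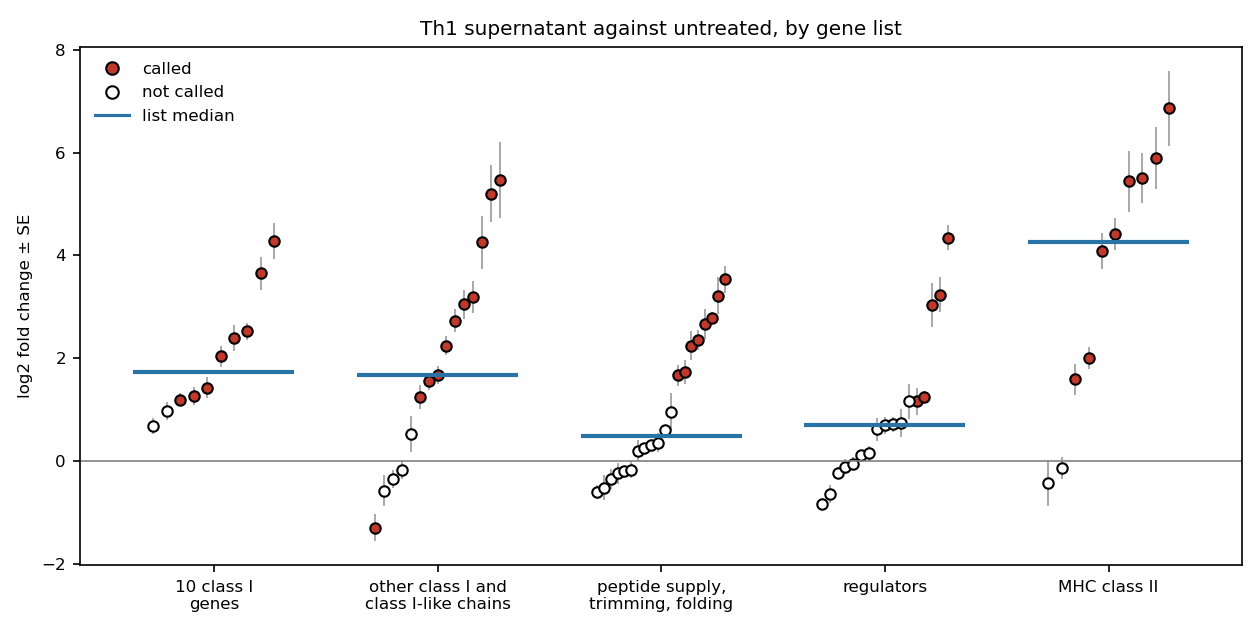
Log2 fold change ± SE (y axis) of Th1 against untreated microglia for each measured gene of 5 lists (x axis), sorted within a list. Filled points were called, open points were not, and the blue line is the list median, which was 1.73 for the 10 class I genes and 4.25 for the class II genes.

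The arrays had 21486 to 25623 of 39429 probes well above background. Of 10 microglia markers, 9 were on the array under these names and all 9 were above background on all 12 arrays. In Th1 against untreated microglia 3 of them rose, with log2 fold changes of 1.61 for P2ry12, 1.18 for Aif1 and 1.04 for Ptprc. Another 3 fell, with -6.31 for Cx3cr1, -2.50 for Trem2 and -2.29 for Tmem119, and the rest were not called. The mean of the list was 13.82 to 14.39 on Th1 arrays against 14.66 to 15.28 on untreated arrays. Of 10 astrocyte markers, Gja1 and Sox9 were below background on all 12 arrays, Aqp4, Aldh1l1, Fabp7 and Aldoc were above it on all 12, and the other 4 on some. The 7 that passed the filter on dim probes were tested; none rose and Fabp7 fell, with a log2 fold change of -2.24. Experiment 14 had the highest mean log2 signal of the 7 measured astrocyte markers in each group, at 8.15 on the Th1, 8.31 on the Th17 and 8.69 on the untreated array, against 7.22 to 7.55, 7.29 to 7.87 and 7.17 to 7.69 in the other experiments. The mean log2 signal of 6 measured oligodendrocyte lineage markers was lower on Th1 than on untreated arrays in every experiment, at 7.29 to 8.24 against 8.25 to 9.58. Of these 6, 2 fell (log2 fold changes of -4.24 for Cspg4 and -1.60 for Mbp) and none rose. Of 3 measured endothelial markers 1 rose, Vwf by 3.79 ± 0.54 (SE), and the list mean was 8.16 to 8.75 on Th1 arrays against 6.31 to 6.96 on untreated arrays. Of 4 measured perivascular macrophage markers 1 rose and 2 fell, with a list mean of 10.61 to 11.21 on Th1 arrays against 11.56 to 12.08 on untreated arrays. Of 6 measured T cell markers 1 rose and 2 fell, with log2 fold changes of 2.35 for Lck, -5.28 for Cd28 and -1.31 for Cd5. Cd3e differed by -0.31 and Cd4 by -0.15, and neither passed. Their list mean was 8.21 to 8.51 on Th1 arrays against 8.97 to 9.05 on untreated arrays, with Cd28 the largest change among the 6. Beside these marker counts, 7.49% of all genes were called higher and 7.88% lower. The part of these markers in the class I values was not tested. Without experiment 14 the counts of class I genes called were 8 in Th1 against untreated, 0 in Th17 against untreated and 8 in Th1 against Th17. Without experiment 13 they were the same.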

How the data were processed

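Total RNA of 12 microglia samples was labelled with Cy3 and hybridised to Agilent mouse arrays; the deposited scanner files hold intensity values from Feature Extraction 10.7.3.1, background-subtracted within each array, and name mm9 as build. The series' value table holds log2 values that the authors scaled and centred by a method not stated; its columns (medians -0.225 to 0.18) correlated at 0.99999 or above with scaled, median-centred log2 processed signals over 13579 bright probes, and it served as an alternative.

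Spot averaging, normalization, floor and call thresholds were taken from the study's methods, which normalized these arrays together with astrocyte arrays; here the 12 microglia arrays were normalized alone, and the filter on dim probes and the choice of 1 probe per gene were added. Control spots and spots with outlier or manual flags were left out (103 to 230 per array), spots of a probe were averaged geometrically, and signals were quantile-normalized, scaled to a 75th percentile of 1500, floored at 15 and log2-transformed. Filters on the coefficient of variation of pixels and on the spread of replicate spots were not applied. Probes well above background on at least 4 of 12 arrays were kept (24287), with the brightest per gene (19802 genes). Gene names came from RefSeq (GRCm38.p6), which named 27228 of 39429 probes (69.06%); 13950 tested genes (70.4%) had a symbol.

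Contrasts of group means were fitted across all 12 arrays (limma 3.58.1, R 4.3.3) and p-values adjusted by Benjamini-Hochberg; a call needed an adjusted p under 0.01 and over 2-fold. The steps were tested on simulated data. Named genes were all 10 members and, per list, up to 4 called genes with the largest change and the 2 smallest, plus the 5 nearest patterns of Nlrc5, Tap1 and H2-K1. Psmb10, Psme1, Psme2, Erap1, Calr, Canx, Hspa5, Blmh, Nfya, Nfyc, Rfx5, Rfxank, Rfxap, the called markers and the 6 measured T cell markers were added after their values were seen. Some results that this rule names are not reported here. Members and lists were chosen with earlier results of these data known. Samples of 1 experiment number deviated together in all 12 comparisons (r 0.24 to 0.63), so the number pairs them. The number of arrays limits the precision. Alternatives were scaling alone, normexp (offset 50) on the median signal in place of the mean signal, other floors, no filter, all probes, blocks for experiment and slide, the value table and leaving out arrays; those without experiments 13 and 14 were chosen after seeing the data.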

Additional observations from a re-analysis of the deposited data

Results flagged for a closer look

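H2-K1 was the 1 result of 30 tested (10 genes in 3 groups of 4 arrays) in which an array lay far from the others of its group. Th1 16 measured 18.02 on the log2 scale, against 18.30 to 18.34 on the other Th1 arrays, and the gap took 0.896 of the group's range. Chance alone marks about 1 in 20 such groups. Without that array H2-K1 stayed called in Th1 against untreated microglia.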

How the results depend on the processing

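The count of class I genes called was 8 in Th1 against untreated microglia (8 to 9 over the alternatives), 0 in Th17 against untreated under every alternative, and 8 in Th1 against Th17 (7 to 9). With the experiment number as a replicate block the counts were 8, 0 and 8, and the block changed no call of the 10 genes; all genes called were then 3405, 0 and 3232, against 3044, 0 and 2931 without it. The genes behind these shifts were H2-D1 and H2-Q7. In Th1 against untreated, H2-D1 was called with scaling alone (1.04), in the value table (1.04) and without untreated 12 (1.08), untreated 14 (1.02) or Th1 16 (1.08). In Th1 against Th17, H2-D1 was called with scaling alone and in the value table (both 1.06), and H2-Q7 was not called with the slide as a block (1.00) or without Th17 16 (0.99). Differences of Th17 against untreated near 0 changed sign for H2-D1 with scaling alone (-0.022), in the value table (-0.021), without untreated 13 (-0.065, the lowest of -0.065 to 0.189 with 1 array left out) and without experiment 13 (-0.124), for H2-M3 without Th17 13 (-0.064, the lowest of -0.064 to 0.197) and without experiment 13 (-0.059), and for H2-T23 without experiment 13 (-0.030). The cause was not tested. The other 704 recomputed values kept their direction and stayed called or not called. Among these, Nlrc5 in Th1 against untreated moved to 2.77 with the mean over its probes and stayed called. B2m in Th1 against Th17 passed on limma's adjusted p with scaling alone (0.000789), in the value table (0.00081), with the experiment block (0.00547) and with normexp (0.00927). It stayed below 2-fold in each of these. Arrays give no read depth; the 10 genes were above background on every array.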
